A study of Homo sapiens with 6 samples.

Results

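The genes described here encode 6 transmembrane mucins (MUC1, MUC3A, MUC12, MUC13, MUC17 and MUC20) and 4 brush border proteins (CDHR2, CDHR5, VIL1 and DPP4). They were taken by gene name from a table of read counts per gene, and 10 of the 58735 named genes in that table were members. All 10 were detected in both groups and 9 had enough counts to be tested, MUC1 being the exception. The counts came from poly(A) RNA of LS174T, an established human colorectal adenocarcinoma line that the labels call goblet-like. There were 3 libraries with the genotype label FXYD3 knockout and 3 wild-type libraries, with no treatment named for either group. FXYD3 is a small membrane protein that regulates the sodium pump. The labels do not describe the edit and do not say whether the edited cells were 1 clone, or how far the cultures behind a group's libraries were separate. The p-values below therefore cover library-to-library spread, and that spread may be technical.

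Transmembrane mucins are long, heavily O-glycosylated proteins anchored in the apical membrane, where they form the glycocalyx, a brush-like coat that keeps microbes and particles away from the cell surface. They stand on microvilli, finger-like protrusions packed into the brush border of absorptive cells. Each microvillus has a core of actin filaments bundled by villin and related proteins, and neighbouring microvilli are tied together at their tips by the protocadherins CDHR2 and CDHR5. The brush border membrane also carries digestive enzymes, among them the peptidase DPP4, and intestinal goblet cells bear a thinner version of the same surface.

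Libraries held 15417232 to 19453217 counts in named genes. FXYD3, the targeted gene, was not lower in the knockout-labelled libraries. It had 79, 131 and 85 counts there, against 54, 91 and 55 in the wild-type libraries. Scaled to depth the groups overlapped, and the log2 fold change was 0.54 (SE 0.20, edgeR adjusted p = 0.0522). These counts do not measure the protein. AC020907.6 on the same strand shares 38.8% of the FXYD3 exon bases and had 0 counts in all knockout-labelled and 0 in all wild-type libraries. Directions below therefore refer to the genotype label alone. Over all 15351 genes tested, 12.0% were higher and 12.4% lower at an edgeR adjusted p below 0.05. Of 16 colon and goblet markers 15 were tested, and 7 were lower and 0 higher in the knockout-labelled libraries. Their summed level ran from 11909 to 12731 depth-scaled counts (CPM, counts relative to library size) in knockout-labelled and from 11337 to 12954 CPM in wild-type libraries. The lower ones, all named here after their values were seen, included the goblet cell genes MUC2 (15.8 ± 3.91 CPM in knockout-labelled and 31.5 ± 1.94 CPM in wild-type libraries, log2 fold change -0.99), SPDEF (-0.84), TFF3 (-0.62), AGR2 (-0.56) and FCGBP (-0.37). The others were the intestinal factor gene CDX1 (-0.67) and the cadherin gene CDH1 (-0.36). Most of the summed level was keratin KRT8, at 7328 CPM in knockout-labelled and 6929 CPM in wild-type libraries. CLCA1 was nearly absent, with 13 counts in all knockout-labelled libraries together and 2 in all wild-type ones. Markers of fibroblasts summed to between 6.49 and 8.29 CPM in knockout-labelled and between 1.33 and 2.11 CPM in wild-type libraries. That gap was mostly COL3A1, with 293 and 16 counts, while COL1A2 and PDGFRA had none in any library. Leukocyte markers summed to 32.7 to 33.8 CPM in knockout-labelled and 34.1 to 38.6 CPM in wild-type libraries, most of it LYZ (log2 fold change 0.04). CD14 had 20 counts in all knockout-labelled and 189 in all wild-type libraries. It passed the count filter only through the wild-type libraries, so no test is given for it. PTPRC, CD3E and CD3D had no counts. Endothelial markers stayed at or below 0.417 CPM in every library, with PECAM1 and KDR at 0. The part of these other cell types in the results was not tested.

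The mucins share a composition that shows in their coding sequence. In the GENCODE 29 transcript with the longest coding sequence, codons for serine, threonine or proline, the residues of O-glycosylated stretches, made up 58.0% in MUC3A, 56.5% in MUC17, 53.6% in MUC12, 44.1% in MUC1, 42.5% in MUC20 and 30.7% in MUC13. The share was 29.9% in CDHR5, whose outer part also carries a mucin-like stretch, and 20.7% in CDHR2, 18.7% in DPP4 and 16.3% in VIL1. The units below are the 30 coding bases that recur most often in the same reading frame of each gene. They are shown because they are the repeats on which reads of these genes must be placed, and capitals mark codons for serine, threonine or proline. 
MUC1: cacggtgtcACCTCGgccCCGgacACCagg
MUC17: gaggctAGCACCcttTCAACAACTCCTgtt
MUC20: ACCCCGTCAcgggccTCAgagAGCAGCgcc
MUC12: ACAAGCTCAggcgtcAGTgaagaaTCCACC
MUC3A: ACTCCCAGCttcACTTCTTCGatcACCACC
The MUC1 unit occurred 36 times, that of MUC17 17 times, that of MUC20 11 times, that of MUC12 7 times and that of MUC3A 4 times. A count of reads depends on how much of a gene is unique. In MUC12, 61.5% of all 50-base windows of the transcript occurred more than once within the transcript, compared with 42.4% in MUC1, 22.8% in MUC20, 8.60% in MUC17 and 1.86% in MUC3A. For MUC20, 70.3% of windows also occurred in transcripts of another gene, foremost the pseudogene copy MUC20P1, which itself had 37 counts in all knockout-labelled and 35 in all wild-type libraries. How repeated reads were counted is not given in the sources used here, so the levels of MUC1, MUC12 and MUC20 are uncertain.

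Levels of different genes were compared per kilobase of gene length (RPKM, computed from the counts and the deposited gene lengths). MUC13 was by far the most abundant mucin, at 83.9 ± 2.73 RPKM in knockout-labelled and 96.8 ± 6.81 RPKM in wild-type libraries (SD, n = 3 each). Villin followed, and DPP4, CDHR5, MUC17 and MUC3A lay between 1 and 12 RPKM. MUC20, CDHR2, MUC12 and MUC1 were below 1 RPKM in every library. In the knockout-labelled libraries DPP4 stood above CDHR5, whereas in wild type CDHR5 stood above DPP4, and in neither group did the libraries of these 2 genes overlap. The levels of CDHR5 and MUC17 overlapped in the knockout-labelled libraries, and those of MUC12 and MUC1 overlapped in both groups, so the order of those neighbours is not resolved.

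**Figure D1:**
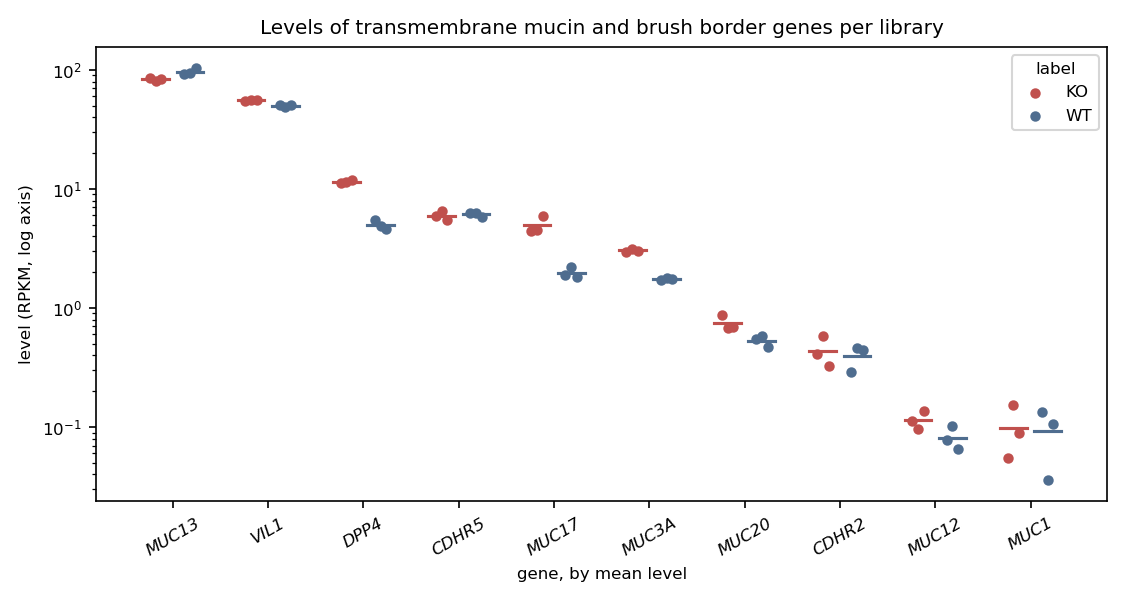
Level of each of the 10 genes in RPKM on a log axis, genes ordered by mean level, with 3 knockout-labelled libraries (KO, left) and 3 wild-type libraries (WT, right) as points and a bar at each mean. DPP4, MUC17 and MUC3A show knockout-labelled points clear above wild type, MUC13 shows them below, and MUC1 and MUC12 lie near the bottom of the scale with overlapping points.

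Among the 9 tested members 3 were higher (MUC17, DPP4 and MUC3A), 1 was lower (MUC13) and 5 were not called at an adjusted p below 0.05 in edgeR's quasi-likelihood test. Of all 15351 genes tested, 24.3% were called, 12.0% higher and 12.4% lower. The median log2 fold change was 0.48 over the tested members and 0.0021 over all genes tested. The member median is the value of MUC12, a gene with few counts that was not called. With so many genes called, and members named with earlier results known, these counts describe the 9 genes and no more. In bulk RNA, a change in the number of cells that express a gene cannot be told apart from a change in RNA per cell.

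MUC17 (ENSG00000169876; GRCh38 chromosome 7, 101020072 to 101058745, plus strand) encodes a very large mucin that covers the microvilli of enterocytes. It had 4.45, 4.53 and 5.99 RPKM in the knockout-labelled libraries, against 1.90, 2.20 and 1.83 RPKM in the wild-type libraries. Every knockout-labelled library was above every wild-type library, as for 18.6% of all genes tested. The third knockout-labelled library was the highest. MUC17 rose 2.52-fold (95% interval 2.14 to 2.96; log2 fold change 1.33, SE 0.11, edgeR adjusted p = 1.0e-07). Its reads were 72.8 ± 12.6 CPM in knockout-labelled and 28.8 ± 2.92 CPM in wild-type libraries. The call held in each of 16 alternative analyses, with log2 fold changes of 1.18 to 1.42.

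MUC3A (ENSG00000169894; chromosome 7, 100949555 to 100968346, plus strand) encodes a membrane mucin of the intestinal surface built along the same lines as MUC17. It had 2.98, 3.14 and 3.03 RPKM in the knockout-labelled libraries, against 1.73, 1.80 and 1.74 RPKM in the wild-type libraries. Within a group the libraries were nearly level, and the groups lay far apart. MUC3A rose 1.74-fold (95% interval 1.54 to 1.96; log2 fold change 0.80, SE 0.08, edgeR adjusted p = 3.1e-08). An antisense gene, AC254629.1, covers 6.50% of its exon bases on the other strand but had only 16 counts in knockout-labelled and 9 in wild-type libraries. Its near-identical relative MUC3B was not analysed here, so the counts of MUC3A are uncertain.

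MUC12 (ENSG00000205277; chromosome 7, 100969623 to 101018949, plus strand) lies between them, 1276 bases from MUC3A and 1122 bases from MUC17. It encodes another mucin of the same kind, reported in colon. It was low, with 30, 32 and 39 counts in the knockout-labelled libraries and 23, 31 and 18 in the wild-type libraries. The ranges overlapped, and the log2 fold change of 0.48 had a 95% interval from -0.16 to 1.12 (edgeR adjusted p = 0.293). A change of the size seen in MUC3A (0.80) lies inside that interval, so at this depth it could be neither shown nor excluded. One of the size seen in MUC17 (1.33) lies outside it.

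The proportion between the called mucins differed between groups. MUC17 had 1.49, 1.44 and 1.97 times the RPKM of MUC3A in the knockout-labelled libraries and 1.10, 1.22 and 1.05 times in the wild-type libraries. Against MUC13, the MUC17 level was 0.0516, 0.0560 and 0.0709 in knockout-labelled and 0.0206, 0.0235 and 0.0175 in wild-type libraries. Neither ratio overlapped between groups. For MUC17 over MUC13 this had to be so, since every knockout-labelled library was above wild type in MUC17 and below it in MUC13. No share over other pairs of genes was computed, so the ratios describe these genes alone. These ratios do not depend on library scaling.

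MUC13 (ENSG00000173702; chromosome 3, 124905442 to 124953819, minus strand) encodes a short transmembrane mucin found on goblet and absorptive cells of the gut. It had 86.3, 80.9 and 84.4 RPKM in the knockout-labelled libraries, against 92.1, 93.7 and 104.6 RPKM in the wild-type libraries. All knockout-labelled libraries were below all wild-type libraries, as for 18.6% of all genes tested, with the third wild-type library highest. MUC13 fell by 0.21 on the log2 scale (SE 0.06, 95% interval -0.33 to -0.09, edgeR adjusted p = 0.0105). Leaving out wild-type library 3 (-0.15, adjusted p = 0.0759) or knockout-labelled library 2 (-0.18, adjusted p = 0.0671) ended the MUC13 call.

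MUC13 was the bulk of the mucin transcript level in both groups. It made up 91.0, 90.4 and 89.5% of the summed RPKM of the 6 mucins in the knockout-labelled libraries and 95.5, 95.2 and 96.1% in the wild-type libraries. MUC17 made up 5.37 ± 0.864% and 1.96 ± 0.280% and MUC3A 3.29 ± 0.191% and 1.74 ± 0.124% in knockout-labelled and wild-type libraries (SD, n = 3 each). The sum itself was 92.9 ± 2.92 RPKM in knockout-labelled and 101.3 ± 6.64 RPKM in wild-type libraries.

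MUC20 (ENSG00000176945; chromosome 3, 195720882 to 195741123, plus strand) encodes a mucin known to bind the receptor MET. It had 58, 57 and 49 counts in the knockout-labelled libraries and 40, 44 and 32 in the wild-type libraries. Scaled to depth, knockout-labelled libraries were all above wild type (2.92 to 3.75 and 1.99 to 2.47 CPM), as for 18.6% of all genes tested. The call was not made (log2 fold change 0.49, SE 0.24, 95% interval -0.0047 to 0.99, edgeR adjusted p = 0.149). The long noncoding RNA gene MUC20-OT1 runs through it on the same strand and shares 42.8% of its exon bases. That gene rose to 26.8 ± 1.11 CPM in knockout-labelled libraries, against 19.8 ± 0.506 CPM in wild type (log2 fold change 0.44, edgeR adjusted p = 0.00053), so reads of the shared exons cannot be assigned to either.

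MUC1 (ENSG00000185499; chromosome 1, 155185824 to 155192916, minus strand), the widely expressed epithelial mucin with a signalling tail, was barely present. It had 4, 14 and 7 counts in the knockout-labelled libraries and 11, 3 and 8 in the wild-type libraries, and it was not tested. The depth-scaled ratio of the sums was 1.12, with an exact interval of 0.608 to 2.09 that covers counting error only. Other genes overlap less of the members: AC105446.1 takes 1.13% of the MUC12 exon bases, AC008063.1 3.43% of DPP4, RN7SKP54 1.85% of MUC17 and AL713999.1 1.02% of MUC1, each with few counts or none. Of the other transmembrane mucins looked up, MUC15, MUC16, MUC21 and EMCN had no counts in any library. MUC4 had 29 counts in all knockout-labelled and 7 in all wild-type libraries. The mucin-like gene PARM1, the one listed gene with enough counts, stood at 77.8 ± 6.31 CPM in knockout-labelled and 76.1 ± 4.73 CPM in wild-type libraries (edgeR adjusted p = 0.803).

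**Figure D2:**
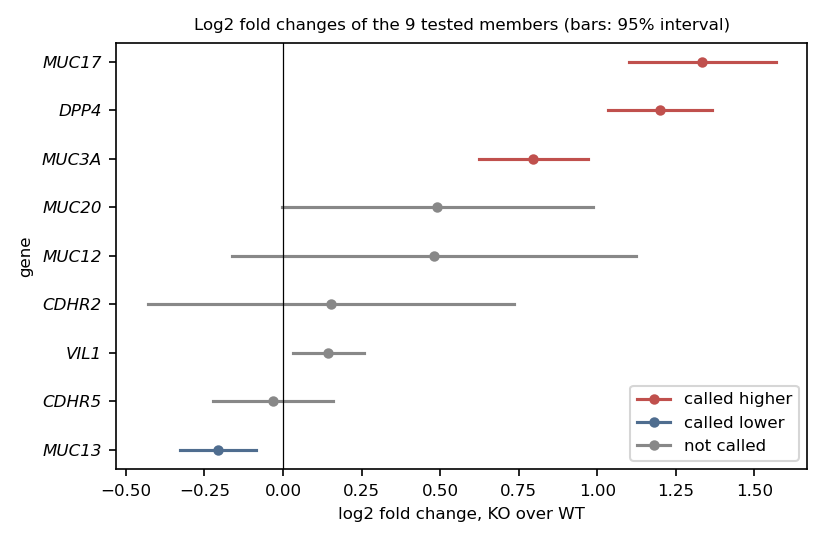
Log2 fold change of the 9 tested genes, knockout-labelled over wild type, as points with 95% intervals from edgeR; color gives the call at an adjusted p of 0.05. MUC17, DPP4 and MUC3A lie right of 0, MUC13 left of it, and the widest intervals belong to the genes with few counts, MUC12, CDHR2 and MUC20.

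Neither tip-link protocadherin was called. CDHR5 (ENSG00000099834; chromosome 11, 616565 to 626078, minus strand) had 5.975, 6.49 and 5.51 RPKM in the knockout-labelled libraries, against 6.26, 6.33 and 5.80 RPKM in the wild-type libraries. The groups overlapped, and its log2 fold change of -0.03 had a 95% interval from -0.22 to 0.16 (edgeR adjusted p = 0.848). CDHR2 (ENSG00000074276; chromosome 5, 176542511 to 176595974, plus strand), the partner it binds across the gap, was much lower, with 34, 61 and 29 counts in the knockout-labelled and 27, 44 and 38 in the wild-type libraries. Its log2 fold change was 0.15 with a wide interval, -0.43 to 0.74 (edgeR adjusted p = 0.75), and the sign turned without knockout-labelled library 2 or wild-type library 1. GPRIN1 on the other strand overlaps 3.23% of the CDHR2 exon bases and had 29 counts in all knockout-labelled and 199 in all wild-type libraries.

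CDHR2 and CDHR5 are held in place by a complex of scaffolds and a motor. Of 4 listed partners 1 was higher and 0 lower. For this list and those below, the shares over all genes tested were 12.0% higher and 12.4% lower. The scaffold gene USH1C, which encodes harmonin, rose to 97.5 ± 6.15 CPM in knockout-labelled libraries, against 83.4 ± 5.64 CPM in wild type (log2 fold change 0.23, edgeR adjusted p = 0.0138). The USH1C call was lost without knockout-labelled library 1 (adjusted p = 0.0548) or 2 (adjusted p = 0.102). MYO7B, the motor of the complex, ANKS4B, its other scaffold, and the light chain gene CALML4 were not called, with log2 fold changes of 0.17, 0.05 and -0.35.

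VIL1 (ENSG00000127831; chromosome 2, 218419092 to 218453295, plus strand) encodes villin, which bundles and severs actin filaments in the microvillus core. It had 54.8, 55.8 and 55.9 RPKM in the knockout-labelled libraries, against 50.8, 48.8 and 51.1 RPKM in the wild-type libraries. The groups did not overlap, as for 18.6% of all genes tested in this direction. The difference was small, 1.11-fold (95% interval 1.02 to 1.19), and narrowly missed the threshold (log2 fold change 0.14, SE 0.05, edgeR adjusted p = 0.0542). It passed under 6 of 16 alternatives, among them DESeq2 (adjusted p = 0.0368) and total-count scaling (adjusted p = 0.0180). USP37 on the opposite strand covers 44.0% of the VIL1 exon bases. USP37 stood at 19.0 ± 1.41 CPM in knockout-labelled and 19.3 ± 1.55 CPM in wild-type libraries, far below VIL1 at 384 ± 4.19 CPM in knockout-labelled and 348 ± 8.84 CPM in wild-type libraries.

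**Figure D3:**
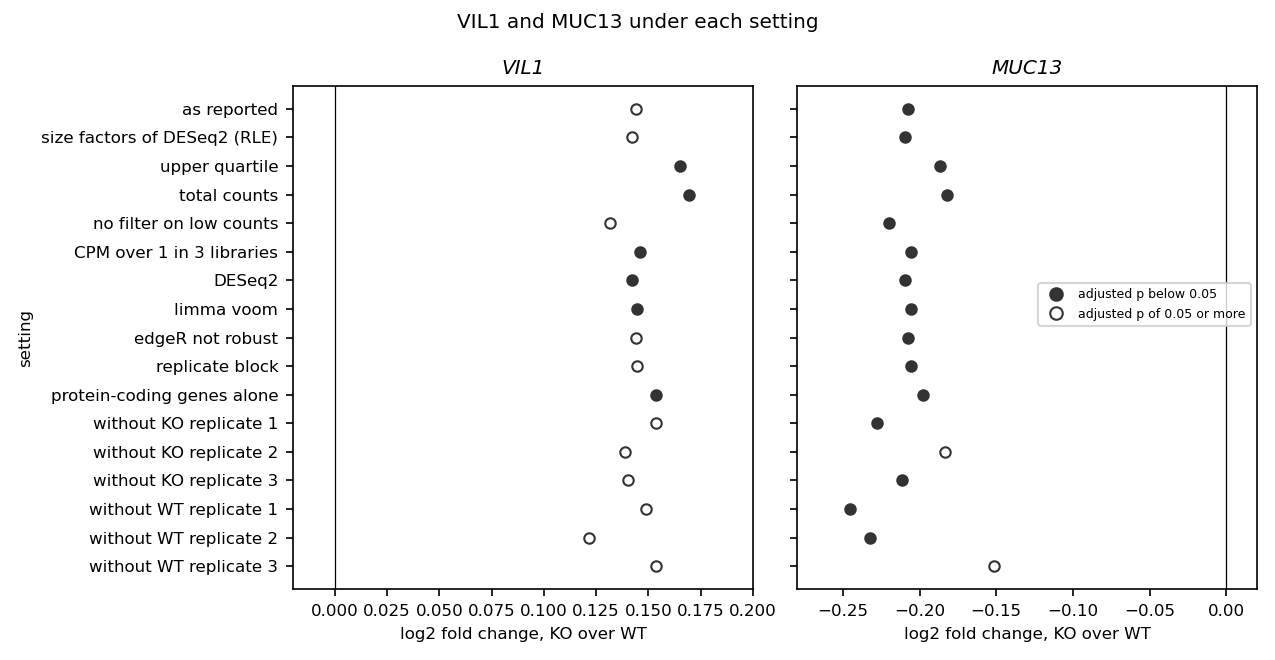
Log2 fold change of VIL1 (left) and MUC13 (right) as reported and under each of 16 alternative settings, with filled points where the adjusted p was below 0.05. VIL1 keeps between 0.12 and 0.17 while its call comes and goes, and MUC13 keeps between -0.25 and -0.15 and loses its call when knockout-labelled library 2 or wild-type library 3 is left out.

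DPP4 (ENSG00000197635; chromosome 2, 161992241 to 162074542, minus strand) encodes dipeptidyl peptidase 4, a brush border enzyme that trims dipeptides from proline-containing peptides and inactivates incretin hormones. It had 11.2, 11.4 and 11.8 RPKM in the knockout-labelled libraries, against 5.49, 4.86 and 4.61 RPKM in the wild-type libraries. The groups were far apart and the knockout-labelled libraries nearly level. DPP4 rose 2.30-fold (95% interval 2.05 to 2.58; log2 fold change 1.20, SE 0.08, edgeR adjusted p = 4.6e-12). In all 16 alternatives DPP4 stayed called, with log2 fold changes of 1.14 to 1.27. Its cytosolic relatives DPP8 and DPP9 were not called (log2 fold changes -0.02 and -0.04), nor was PREP, the most abundant gene of that list per length. ADA, the adenosine deaminase that docks on DPP4, was the 1 called gene of the 4 tested there. It was at 10.9 ± 1.21 CPM in knockout-labelled and 13.8 ± 0.679 CPM in wild-type libraries (log2 fold change -0.34, edgeR adjusted p = 0.0349), a call lost in 7 alternatives, among them the fits that left out knockout-labelled library 2 or 3 or wild-type library 1 or 3 (adjusted p 0.0737 to 0.16).

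The promoters of the 4 called members are printed as the regions from which their transcripts start. They are RefSeq windows on GRCh38.p14, 250 bases before to 50 after the annotated start; 7 of the 10 genes had one. Capitals mark matches on either strand to 7 short motifs of intestinal and general promoter factors. These were TTTAT (the CDX core), GATAA (the GATA core), the HNF1 motif, CAAAGTCCA (HNF4), TATAAA (the TATA box), GGGCGG (Sp1) and TGACGTCA (the cyclic AMP response element). 
MUC17, chr7:101019831-101020130, plus strand: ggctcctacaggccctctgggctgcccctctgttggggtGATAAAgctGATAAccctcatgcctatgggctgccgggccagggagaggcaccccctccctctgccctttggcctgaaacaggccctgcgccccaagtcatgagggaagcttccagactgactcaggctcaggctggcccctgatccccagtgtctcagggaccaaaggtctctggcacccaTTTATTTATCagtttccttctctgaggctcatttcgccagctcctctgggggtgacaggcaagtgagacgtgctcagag
MUC3A, chr7:100949284-100949583, plus strand: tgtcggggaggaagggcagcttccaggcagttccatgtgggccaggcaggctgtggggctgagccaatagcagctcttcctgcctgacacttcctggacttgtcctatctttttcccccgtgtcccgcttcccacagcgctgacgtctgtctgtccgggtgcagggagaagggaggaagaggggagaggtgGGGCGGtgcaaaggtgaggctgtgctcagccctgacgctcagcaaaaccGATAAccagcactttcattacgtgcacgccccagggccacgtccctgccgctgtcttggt
DPP4, chr2:162074166-162074465, minus strand: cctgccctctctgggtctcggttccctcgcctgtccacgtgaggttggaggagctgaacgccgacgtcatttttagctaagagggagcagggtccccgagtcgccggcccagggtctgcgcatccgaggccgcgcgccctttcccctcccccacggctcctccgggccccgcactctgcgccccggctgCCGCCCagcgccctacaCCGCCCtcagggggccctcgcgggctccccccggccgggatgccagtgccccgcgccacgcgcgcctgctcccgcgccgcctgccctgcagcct
MUC13, chr3:124934702-124935001, minus strand: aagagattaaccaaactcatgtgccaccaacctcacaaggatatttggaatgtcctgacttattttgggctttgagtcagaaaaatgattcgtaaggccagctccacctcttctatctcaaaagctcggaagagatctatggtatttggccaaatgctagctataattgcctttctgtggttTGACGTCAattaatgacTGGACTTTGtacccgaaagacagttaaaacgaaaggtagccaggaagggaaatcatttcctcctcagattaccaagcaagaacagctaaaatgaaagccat
The MUC17 window held 3 matches to TTTAT and 3 to GATAA, some of them overlapping, and MUC3A held 1 match to GATAA and 1 to GGGCGG. DPP4 had 2 matches to GGGCGG and none to the other 6 motifs, in a window that was 75.0% G or C. MUC13 held 1 CAAAGTCCA, here on the other strand, and 1 TGACGTCA, in a window with 41.0% G or C. Of all 35116 RefSeq windows of this length, 34.9% held TTTAT, 22.7% GATAA, 45.0% GGGCGG, 0.384% CAAAGTCCA, 1.85% TGACGTCA, 11.5% TATAAA and 0.0057% the HNF1 motif. Every TATAAA also contains the complement of TTTAT, so those matches overlap by construction. The RefSeq start of MUC13 lies 19068 bases inside the 5' end of the deposited gene, against 9 bases for MUC17, 21 for MUC3A and 327 for DPP4. A match describes letters and not a bound site.

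The 3 mucins of chromosome 7 span 109191 bases, so their neighbours were examined too. Within 300 kb of the cluster 21 other genes were tested, of which 2 were higher, 3 lower and 16 not called. That is near the shares over all genes tested, 12.0% higher and 12.4% lower. The tight junction gene CLDN15 rose to 18.4 ± 0.801 CPM in knockout-labelled libraries, against 10.7 ± 1.15 CPM in wild type (log2 fold change 0.78, edgeR adjusted p = 4.9e-06). AP1S1, a clathrin adaptor subunit, rose by 0.30 on the log2 scale. TRIP6, an adhesion adaptor gene, fell to 7.05 ± 0.899 CPM, against 16.7 ± 0.624 CPM in wild type (log2 fold change -1.24, edgeR adjusted p = 9.2e-09). FIS1, a mitochondrial fission gene, fell by 0.26 on the log2 scale, and its call ended when knockout-labelled library 2 or 3 or wild-type library 1 or 3 was left out (adjusted p 0.0677 to 0.155).

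**Figure D4:**
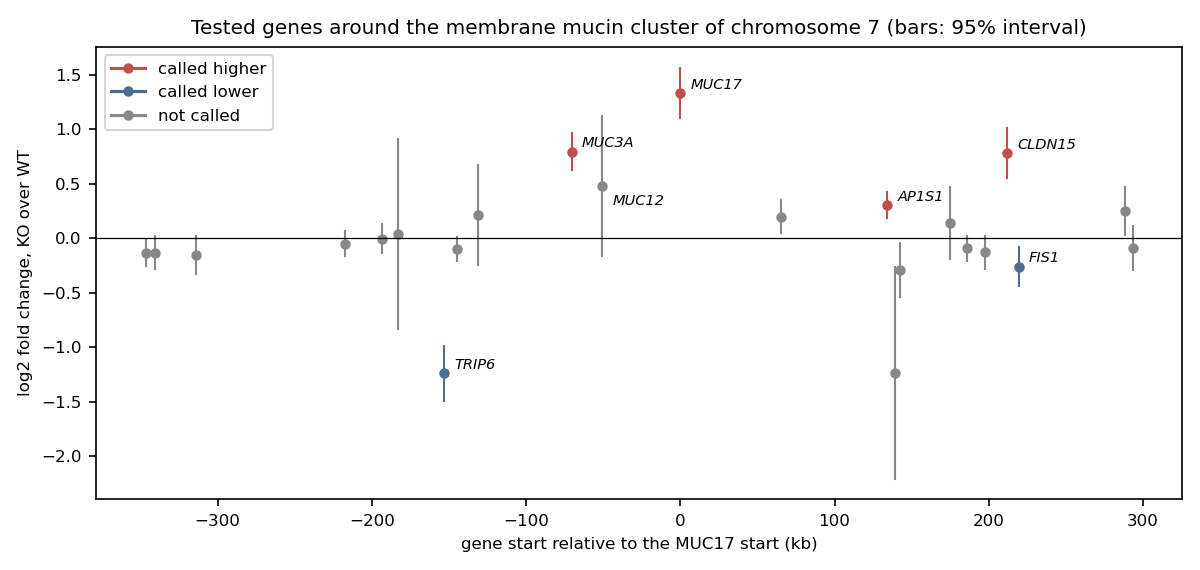
Log2 fold change, knockout-labelled over wild type, with 95% intervals, of tested genes within 300 kb of the mucin cluster, without 1 gene called lower that is not reported here, placed by the distance of their start from that of MUC17 in kb; called genes and MUC12 are named. MUC3A and MUC17 lie above 0 with MUC12 between them, TRIP6 lies below, and most other genes lie close to 0.

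Larger changes than that of villin were seen in other genes of the microvillus core. Of 24 tested genes of the core and its membrane linkers, 8 were higher, 5 lower and 11 not called, with a median log2 fold change of 0.04. MYO1A, the motor that ties the actin core to the membrane, rose to 76.6 ± 1.95 CPM in knockout-labelled libraries, against 26.8 ± 1.30 CPM in wild type (log2 fold change 1.51, SE 0.07, edgeR adjusted p = 6.4e-15). ESPN, which encodes the actin bundler espin, rose to 13.3 ± 0.464 CPM, against 3.39 ± 0.788 CPM in wild type (log2 fold change 1.98, SE 0.16, edgeR adjusted p = 1.1e-10). TNFRSF25 on the other strand covers 5.51% of the ESPN exon bases and had 550 counts in all knockout-labelled and 554 in all wild-type libraries. EPS8, an actin capping and bundling protein of microvillus tips, rose to 216 ± 7.08 CPM, against 115 ± 6.49 CPM in wild type (log2 fold change 0.91, SE 0.06).

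In the EPS8 family, 2 relatives of EPS8 were lower. EPS8L3 fell to 75.6 ± 7.62 CPM, against 136 ± 2.77 CPM in wild type (log2 fold change -0.84, SE 0.07, edgeR adjusted p = 1.2e-10). EPS8L1, chosen after its values were seen, fell by 0.67 on the log2 scale, and EPS8L2 was not called (log2 fold change -0.01). Of the linkers between membrane and actin, radixin changed most. RDX fell to 1.10, 1.23 and 1.25 CPM in the knockout-labelled libraries, against 10.99, 10.6 and 7.02 CPM in the wild-type libraries (log2 fold change -2.99, SE 0.22, edgeR adjusted p = 2.6e-11). Its relative moesin, MSN, also chosen after its values were seen, rose by 0.78 on the log2 scale. Ezrin, the main linker of intestinal microvilli, was not called (EZR, 533 CPM in knockout-labelled and 527 CPM in wild-type libraries, log2 fold change 0.02). ACTB, the most abundant gene of the list per length by its mean over all libraries, was not called (log2 fold change 0.14, adjusted p = 0.12) except with total-count scaling (adjusted p = 0.0339). The actin gene ACTG1, also chosen after its values were seen, was nearly as abundant and was called higher (log2 fold change 0.31, edgeR adjusted p = 0.00045). ACTG1 stood at 1249 RPKM in knockout-labelled and 1007 RPKM in wild-type libraries, against 1216 and 1106 RPKM for ACTB.

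Within the villin and gelsolin family 1 of 7 tested genes was higher and 1 lower, with a median log2 fold change of 0.20. The count higher was 2 in 5 of 16 alternatives, among them the fits without knockout-labelled library 1 or wild-type library 2. SCIN, which encodes the actin-severing protein scinderin, rose to 18.9 ± 0.881 CPM, against 7.96 ± 0.532 CPM in wild type (log2 fold change 1.25, edgeR adjusted p = 1.9e-09). Gelsolin, GSN, fell by 0.32 on the log2 scale, and FLII, the most abundant per length, had a log2 fold change of -0.03 (adjusted p = 0.752). VILL, the closest in name to villin, had 0.02.

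**Figure D5:**
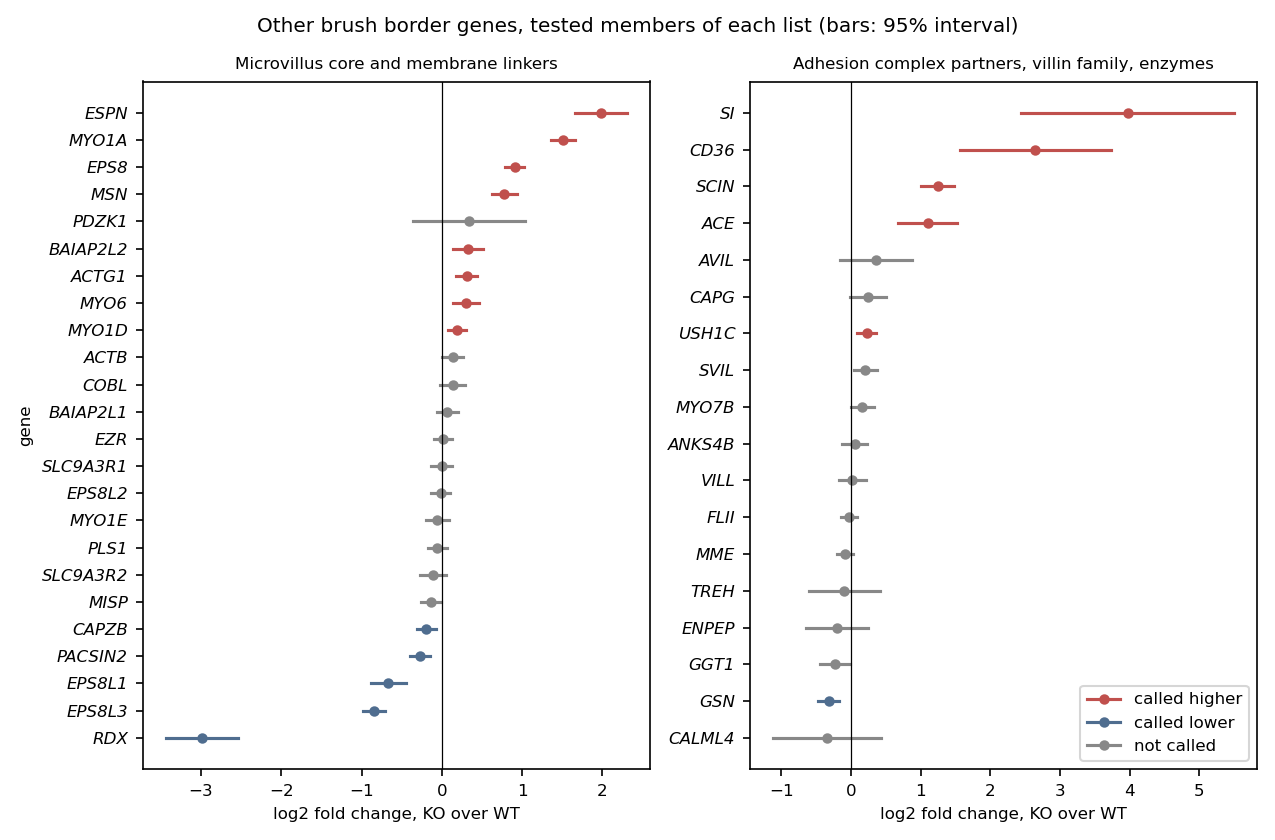
Log2 fold changes with 95% intervals, knockout-labelled over wild type, for tested genes of the microvillus core and membrane linkers (left) and of the adhesion complex partners, the villin family and the brush border enzymes (right), colored by call. ESPN, MYO1A and EPS8 lead one side of the left panel and RDX the other, while EZR, PLS1 and both SLC9A3R genes sit close to 0.

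Brush border enzymes other than DPP4 were mostly low in this line. Of 19 listed genes 7 had enough counts, and 3 were called higher and 0 lower. Of these, SI and CD36 passed the count filter only through the knockout-labelled libraries, so they had to differ and no test is given for them. With a filter of CPM over 1 in 3 libraries they were not tested and 1 gene was higher. SI, the sucrase-isomaltase gene of enterocytes, had 10, 14 and 29 counts in the knockout-labelled libraries, against 1, 0 and 2 in the wild-type libraries. ACE, a dipeptidyl carboxypeptidase, rose to 5.23 ± 0.719 CPM, against 2.44 ± 0.0272 CPM in wild type (log2 fold change 1.10, edgeR adjusted p = 0.00018). AC113554.1 on the same strand shares 23.9% of the ACE exon bases and had 2 counts in all knockout-labelled and 0 in all wild-type libraries. CD36, a fatty acid receptor and not an enzyme, had 20, 19 and 32 counts in the knockout-labelled libraries, against 1, 7 and 3 in the wild-type libraries. The neprilysin gene MME, the most abundant of the list per length, was not called (181 ± 11.6 CPM in knockout-labelled and 192 ± 6.05 CPM in wild-type libraries, log2 fold change -0.09, adjusted p = 0.317). The aminopeptidase gene ANPEP had 17 and 8 counts in all, alkaline phosphatase ALPI 9 and 4, and lactase LCT 5 and 1, in knockout-labelled and wild-type libraries.

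Apical transporters changed in both directions, with 3 of 12 tested genes higher and 1 lower and a median log2 fold change of 0.16. The count lower was 2 with no count filter and in each fit that left out 1 library other than wild-type library 2. The efflux pump gene ABCB1 rose to 88.4 ± 3.08 CPM, against 45.6 ± 2.69 CPM in wild type (log2 fold change 0.95, edgeR adjusted p = 2.4e-11), and a second efflux pump gene, ABCC2, rose by 0.98 on the log2 scale. SLC6A20, an imino acid carrier and the most abundant of the list per length, rose to 392 ± 26.1 CPM, against 332 ± 13.2 CPM in wild type. SLC5A1, the sodium-glucose cotransporter gene, fell to 7.37 ± 0.284 CPM, against 11.3 ± 1.15 CPM in wild type (log2 fold change -0.62, edgeR adjusted p = 0.00077).

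For genes that deliver proteins to the apical membrane or switch on brush border assembly, 2 of 22 tested were higher and 3 lower, with a median log2 fold change of -0.04. RAP2A and TNIK, a small GTPase and a kinase that it recruits in microvillus formation, rose by 0.38 and 0.44 on the log2 scale (edgeR adjusted p = 0.00038 and 0.00015). SNX18, STK25 and SH3BP1 were called lower, with log2 fold changes of -0.28, -0.15 and -0.39 and adjusted p of 0.0473, 0.0492 and 0.041. These calls were lost in 12, 14 and 9 of 16 alternatives. SNX18 and STK25 lost theirs without any 1 of the 6 libraries, and SH3BP1 lost its own when knockout-labelled library 1 or 3 or wild-type library 1 or 3 was left out. STK25 shares 14.4% of its exon bases with FARP2 on the other strand. SH3BP1 shares 35.7% of its exon bases with Z83844.3 on the same strand, which had 0 counts in all knockout-labelled and 1 in all wild-type libraries. The membrane protein gene MAL2, the most abundant per length, was not called (log2 fold change -0.04, adjusted p = 0.682).

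Galectins, lectins that cross-link mucin glycans at the cell surface, had 2 of 6 tested members higher and 0 lower. LGALS4 was the most abundant, rising to 782 ± 21.7 CPM, against 671 ± 46.5 CPM in wild type (log2 fold change 0.22, edgeR adjusted p = 0.00822), a call lost without knockout-labelled library 2 (adjusted p = 0.0542). LGALS2 had 38, 44 and 38 counts in the knockout-labelled libraries, against 6, 5 and 10 in the wild-type libraries. Its wild-type counts alone would not have passed the filter, so its call is no support for a change. LGALS3, the galectin best known for binding mucins, was not called (607 CPM in knockout-labelled and 588 CPM in wild-type libraries, log2 fold change 0.05, adjusted p = 0.652). The cadherin-related list had 0 of 3 tested genes called by edgeR, and CDH17, a cadherin of intestinal epithelium, had 244 ± 12.3 CPM in knockout-labelled and 235 ± 8.13 CPM in wild-type libraries.

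Among 15 genes whose proteins bind the MUC1 tail, shed mucins or dock on them, 1 was called higher and 2 lower. The count higher was 3 without wild-type library 2 and 0 without knockout-labelled library 1 or 3 or wild-type library 3. CTNNB1, which encodes beta-catenin, fell to 551 ± 17.0 CPM, against 659 ± 2.19 CPM in wild type (log2 fold change -0.26, edgeR adjusted p = 0.001). ICAM1, an adhesion receptor, had 8, 5 and 3 counts in the knockout-labelled libraries, against 14, 14 and 24 in the wild-type libraries. It passed the filter only through the wild-type libraries, so its call is no support for a change, and the call ended when knockout-labelled library 2 or 3 or wild-type library 3 was left out. The exchange factor gene SOS1 was higher by 0.25 on the log2 scale (adjusted p = 0.032), which missed the threshold with knockout-labelled library 1 or 3 or wild-type library 3 left out (adjusted p up to 0.195) and with the replicate block. The sheddase genes ADAM17, ADAM10 and MMP14 had log2 fold changes of 0.01, 0.05 and -0.03 and were not called.

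The genes whose profiles were closest to those of the called members were sought among the 10486 protein-coding genes whose mean reached 5 CPM. Likeness was the root mean square difference of log2 values over the 6 libraries, after centring on the wild-type mean, and it is largely set by the fold change itself. For DPP4 the closest were SCIN (0.0682), MSLN and PTPRS, and for MUC17 they were VCAN (0.125), CALB1 and SPIRE1. For MUC3A they were PYGB (0.0177), HKDC1 and PTPRU, and for MUC13 they were CHAF1B (0.0210), SLC22A18 and NECTIN2. SCIN, closest to DPP4, is itself one of the actin-severing proteins named above.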

How the data were processed

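The authors deposited a table of raw read counts, 1 row per gene and not normalized. HISAT2 2.0.5 and featureCounts 1.5.0-p3 are named per the submitters' processing notes, which also list a mouse build. All 58735 named genes carry human identifiers found in GENCODE release 29, and the 10 members have its GRCh38 start and end. No source used here gives the strand setting or the handling of repeated reads. A further 232 rows without a gene name (0.13 to 0.25% of counts per library) were left out. The deposited gene length in bases was used for RPKM.

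Groups were compared by quasi-likelihood F-test in edgeR 4.0.16 (R 4.3.3) with TMM scaling, filterByExpr at a minimum count of 10, robust estimation and no covariate, adjusted by Benjamini-Hochberg over 15351 genes. CPM and RPKM use the TMM-scaled library size. The smallest correlation of libraries within a group was 0.989 in log2 CPM, and no 2 libraries agreed within sampling noise. Steps were tested on simulated data. Intervals from counts cover counting error only.

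Members and lists were chosen with earlier results of these data known. From each list the called genes were named (at most 5, by smallest p) with the most abundant per length; the genes near the chromosome 7 cluster named are the called ones, except 1 called lower that is counted but not reported here. MYO7B, ANKS4B, CALML4, EPS8L1, EPS8L2, MSN, EZR, ACTG1, VILL, DPP8, DPP9, ANPEP, ALPI, LCT, LGALS3, ADAM10, ADAM17, MMP14, MUC4 and MUC20P1 were named after their values were seen. Alternatives were 3 other scalings, 2 other filters, DESeq2 1.42.0, limma voom (limma 3.58.1), non-robust edgeR, a restriction to protein-coding genes, a block on replicate number, and omission of each library in turn. Tables and plots were made in Python 3.11.15.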

Additional observations from a re-analysis of the deposited data

How the results depend on the processing

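MUC17, MUC3A and DPP4 kept their direction and their call under all 16 alternatives, with adjusted p of at most 5.7e-06, 4.5e-06 and 1.3e-08. The call of MUC13 was lost on leaving out 1 library (log2 fold changes -0.25 to -0.15), so the count of members called lower ran from 0 to 1 over the left-out libraries. VIL1 was called with upper-quartile scaling (0.17), total counts (0.17), a filter of CPM over 1 in 3 libraries (0.15), DESeq2 (0.14), limma voom (0.14) and protein-coding genes alone (0.15); the cause was not tested. CDHR2 ran from -0.12 to 0.33 and CDHR5 from -0.097 to 0.026 over left-out libraries, both with turned signs. FXYD3 was called with upper-quartile scaling (0.56), no filter (0.52), the replicate block (0.54) and protein-coding genes alone (0.55), and ran from 0.38 to 0.79 over left-out libraries, called also without wild-type library 2 (0.79, adjusted p = 0.0031). PARM1 ran from -0.031 to 0.085 and FLII from -0.049 to 0.0067 over left-out libraries, with turned signs. In the brush border and glycocalyx lists, 21 of 105 tested genes were called higher and 13 lower, against 12.0% and 12.4% of all genes tested. These counts include SI, CD36, LGALS2 and ICAM1, which passed the filter through 1 group only, so they describe the lists and no more. Over left-out libraries the count higher ran from 18 to 25 and the count lower from 8 to 14. Genes near the chromosome 7 cluster called lower, 3 of 21 tested as reported, ran from 2 to 7 over left-out libraries. The summed mucin level in knockout-labelled libraries, 92.9 RPKM, was 96.2 with protein-coding genes alone, where the library size omits other genes. Among 37 other named genes, 529 of 589 values kept their side of the threshold and direction, 57 lost the call, 1 gained it and 2 turned sign. Replicate numbers did not pair the libraries: same-numbered libraries correlated at 0.0234, -0.0751 and -0.0959 in their deviations. With the replicate block 1478 genes were higher and 1475 lower, against 1839 and 1896 without it, and 3 members were higher and 1 lower either way. Without wild-type library 2, 2189 genes were higher and 2401 lower; over left-out libraries the lowest counts were 1329 and 1376. Depth limits MUC1, MUC12, MUC20 and CDHR2, which had at most 61 counts in any library.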
